A study of Mus musculus with 2 samples.

Results

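The nuclear genes for the subunits of oxidative phosphorylation were examined in maps of open chromatin from mouse cerebral cortex. They were taken as the autosomal protein-coding genes of GENCODE M21 whose symbols begin with Ndufa, Ndufb, Ndufc, Ndufs, Ndufv, Uqcr, Cox4 to Cox8 or Atp5, or are Sdha, Sdhb, Sdhc or Sdhd. The rule found 91 genes among 20807 autosomal protein-coding genes. These 91 gene models carry 90 symbols, because 2 models are named Atp5o, and they include 8 complex I assembly factors (Ndufaf genes), 8 tissue-restricted isoforms of complex IV subunits, the supercomplex factor Cox7a2l and Atp5s. The maps were made by DNase-seq: nuclei are digested lightly with DNase I, which reaches open chromatin most easily, and the ends of the released fragments are sequenced. There were 2 libraries, replicates 1 and 2. Both came from the left cerebral cortex of B6CASTF1/J males aged 8 to 10 months, and the labels name no treatment. B6CASTF1/J mice are hybrids of a laboratory strain and a castaneus strain. Both libraries carry the same donor identifier, so spread between animals may be missing from the SDs, and there is no second condition, so the values below are descriptions without tests.

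Oxidative phosphorylation passes electrons from NADH and succinate through complexes I, II, III and IV to oxygen, pumps protons across the inner mitochondrial membrane, and makes ATP at complex V. Neurons draw most of their ATP from it. A few core subunits are encoded by mitochondrial DNA and were not examined here, and the nuclear subunits must be made in matched amounts. Their promoters are known as targets of NRF1, of the ETS factor GABP (also called NRF-2) and of YY1. Several complex IV subunits exist as a ubiquitous isoform and as isoforms known from heart and skeletal muscle (Cox6a2, Cox7a1, Cox8b), from testis (Cox6b2, Cox7b2, Cox8c), from lung (Cox4i2) or after hypoxia (Ndufa4l2).

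The sequences that follow are from the GRCm38.p6 (mm10) reference and were chosen because they carry what the accessibility data show most clearly. They are written 5′ to 3′ along the strand of the gene, and the hybrid animals also carry castaneus alleles that may differ from them. The first set holds matches to the NRF1 motif GCGCANGCG (N is any base). The centre of each match lay in a footprint, a short protected stretch within open DNA, in both libraries. Capitals mark the bases of the match, and 10 capitals mean that the motif matched on both strands with overlapping letters.
Ndufaf5, chr2:140170652-140170680, plus strand: agtcccgttgGCGCATGCGCctaatagaa
Cox6c, chr15:35938170-35938198, minus strand: atcgactcttGCGCATGCGtgctgctgga
Cox6a1, chr5:115349041-115349101, minus strand: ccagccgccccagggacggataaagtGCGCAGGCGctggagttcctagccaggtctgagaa
Ndufa8, chr2:36049329-36049357, minus strand: tcgctggagaCGCATGCGCagatggtacc
Ndufa13, chr8:69903223-69903251, minus strand: agggacaggaCGCGTGCGCagtggcgcgc
Atp5mpl, chr12:111967037-111967097, minus strand: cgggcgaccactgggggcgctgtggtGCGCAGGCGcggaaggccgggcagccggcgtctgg

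The second set holds the ETS motif CCGGAAG, or its reverse complement CTTCCGG, in capitals. The centres of these matches also lay in footprints of both libraries, though some matches in the first 3 sets run past the edge of a footprint. In each of the first 3 sets the genes are those of highest promoter strength that hold the motif. The Ndufa13 matches of the first and second set lie at -679 bp and 785 bp from its start.
Ndufaf8, chr11:120098915-120098943, plus strand: cgcgttcgactCCGGAAGaggcagggccc
Ndufa13, chr8:69901744-69901802, minus strand: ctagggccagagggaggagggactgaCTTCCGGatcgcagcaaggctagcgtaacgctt
Ndufs1, chr1:63176821-63176849, minus strand: ggcctcggctaCTTCCGGcggaactgcag
Cox6a1, chr5:115348957-115348985, minus strand: ccccatttccgCTTCCGGcgcgccggtgt

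The third set holds the YY1 motif AANATGGC, or its reverse complement GCCATNTT, again in capitals and with the centre in footprints of both libraries.
Ndufaf8, chr11:120098933-120098962, plus strand: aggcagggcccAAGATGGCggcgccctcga
Atp5g1, chr11:96075898-96075957, minus strand: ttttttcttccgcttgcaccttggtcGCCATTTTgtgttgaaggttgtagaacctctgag
Atp5b, chr10:128083313-128083342, plus strand: acccggattccGCCATGTTgagtcttgtgg
Atp5g2, chr15:102670794-102670853, minus strand: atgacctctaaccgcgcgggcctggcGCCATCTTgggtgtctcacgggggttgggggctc

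The last set shows the bases just upstream of the main start of 3 restricted isoforms, each above its ubiquitous counterpart. Capitals mark CpG dinucleotides. There are 1 CpG in the Cox6a2 stretch against 17 in that of Cox6a1, 3 in Cox7a1 against 10 in Cox7a2, and 1 in Cox8b against 10 in Cox8a. Pairs not printed differed less, with 8 in Cox8c against 10 in Cox8a, 7 in 131 bases of Cox6b2 against 9 in 150 bases of Cox6b1, and 3 in 150 bases of Ndufa4l2 against 7 in 136 bases of Ndufa4. Cox4i2 had 12 in 150 bases, more than Cox7a2 or Cox8a, and Cox7b2 had 7 in 150 bases. For these isoforms no stretch of the counterpart was available. The printed stretches are 150 bases long, or 148 for Cox6a1, where an exon begins earlier.
Cox6a2, chr7:128206388-128206537, minus strand: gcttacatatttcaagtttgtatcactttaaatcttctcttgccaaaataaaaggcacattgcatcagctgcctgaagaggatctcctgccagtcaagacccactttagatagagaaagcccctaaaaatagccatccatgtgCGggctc
Cox6a1, chr5:115348982-115349129, minus strand: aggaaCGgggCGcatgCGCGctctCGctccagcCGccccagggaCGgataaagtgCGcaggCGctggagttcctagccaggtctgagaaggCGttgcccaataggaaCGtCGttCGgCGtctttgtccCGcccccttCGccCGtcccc
Cox7a1, chr7:30183994-30184143, plus strand: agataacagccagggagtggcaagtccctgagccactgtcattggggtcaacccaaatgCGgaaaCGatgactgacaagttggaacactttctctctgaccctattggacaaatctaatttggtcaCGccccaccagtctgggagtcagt
Cox7a2, chr9:79759879-79760028, minus strand: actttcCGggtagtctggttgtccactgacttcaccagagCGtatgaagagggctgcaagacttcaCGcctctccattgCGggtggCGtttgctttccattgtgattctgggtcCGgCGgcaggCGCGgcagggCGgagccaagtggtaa
Cox8b, chr7:140900447-140900596, minus strand: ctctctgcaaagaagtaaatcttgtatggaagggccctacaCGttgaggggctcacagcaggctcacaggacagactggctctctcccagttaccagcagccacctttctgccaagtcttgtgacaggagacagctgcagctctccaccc
Cox8a, chr19:7217617-7217766, minus strand: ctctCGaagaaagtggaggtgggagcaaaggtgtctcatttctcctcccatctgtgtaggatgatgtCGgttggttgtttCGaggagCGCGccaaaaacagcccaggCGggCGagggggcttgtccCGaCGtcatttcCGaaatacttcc

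Of the 2 peak lists deposited per library, the stricter, called narrow here, had 40705 entries in replicate 1 and 39508 in replicate 2. A broader list had 71210 and 72217 entries, and 166128 and 174394 footprints were listed, in replicates 1 and 2. Read depth is unknown, since the files used give no read counts. As a check of the tissue, both libraries had a promoter peak at 4 of 4 general neuronal markers, at 2 of 4 of excitatory neurons, at 1 of 4 of astrocytes, at 1 of 4 of oligodendrocytes, and at none of the inhibitory neuron (3), microglial (3) and endothelial (3) markers. None of 5 testis markers and 3 liver markers had one. Of 6 striated muscle markers only Ckm did, at 1.82 in replicate 1 and 3.03 in replicate 2. In bulk tissue, fewer cells of a type and less opening per cell cannot be told apart.

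Whether each gene had an open promoter was asked first. The promoter was taken as 1000 bp on either side of any annotated start, and any narrow peak that reached into it was counted. A promoter peak was present in both libraries for 82 of the 91 genes (90.1%), where 56.0% of all autosomal protein-coding genes did. The 9 without were all 8 tissue-restricted isoforms and the second gene model named Atp5o. Outside the restricted isoforms the count was 82 of 83 (98.8%). In the broader peak list it was 83 of 91 (91.2%), where 62.0% of all genes passed, and the additional gene was the restricted isoform Cox6b2. Other gene groups with duties in every cell had similar counts, with 78 of 78 mitochondrial ribosomal, 86 of 96 cytosolic ribosomal and 37 of 39 proteasome genes.

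The second Atp5o model (ENSMUSG00000116933) spans 243 kb and has a single annotated start, with 0 promoter footprints in each library. The usual Atp5o model (ENSMUSG00000022956), which encodes the OSCP subunit of the ATP synthase stalk, had a promoter peak of 2.58 in replicate 1 and 2.26 in replicate 2. The missing peak concerns the start of the long model and not the usual start of the gene.

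How strongly the promoters were open was read from the signal value that the authors gave each peak, here called its strength and taken at the strongest promoter peak of a gene. Over the 82 genes with a peak in both libraries the median strength was 3.78 in replicate 1 and 3.31 in replicate 2, a mean of 3.54 ± 0.337 (SD, n = 2 libraries). Over all 11656 genes with such a peak it was 2.80 in replicate 1 and 2.44 in replicate 2, a mean of 2.62 ± 0.249. Of the 82 genes, 38 (46.3%) lay in the top 25% of all genes with a peak and 2 in the bottom 25%. Mitochondrial ribosomal genes had a mean of library medians of 2.90 ± 0.207, proteasome genes 3.05 ± 0.382 and cytosolic ribosomal genes 3.80 ± 0.497, so respiratory chain promoters were not the strongest of such groups. Peaks shared with a neighbouring gene count for both, as described further on.

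**Figure D1:**
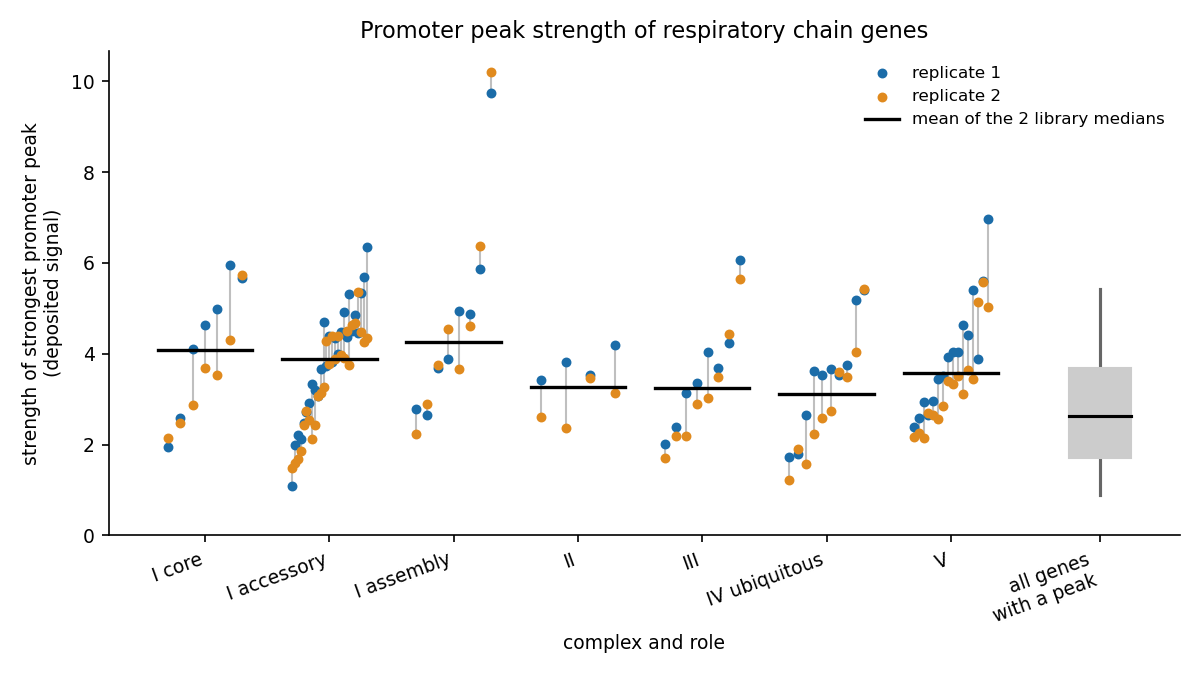
Strength of the strongest promoter peak (deposited signal) of each respiratory chain gene with a peak in both libraries, by complex and role. Cox7a2l and Atp5s, which fall outside these roles, are not drawn. Each grey line joins replicates 1 and 2 of a gene, black bars are the mean of the 2 library medians, and at the right the box spans the middle 50% and the whiskers the 5th to 95th percentiles of all 11656 genes with a peak. Every role's bar lies above the median of all genes, and the assembly factor Ndufaf8 stands highest.

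Complex I, which oxidises NADH, supplied 42 of the 91 genes. Its 7 core subunits, which carry the flavin and iron-sulphur clusters of the peripheral arm, had a mean of library medians of 4.09 ± 0.776. Ndufs7, which holds the last cluster before ubiquinone, had 5.68 in replicate 1 and 5.73 in replicate 2. Ndufs1, the large iron-sulphur subunit, had 5.96 in replicate 1 and 4.31 in replicate 2. Ndufv2 was the lowest core gene at 1.95 in replicate 1 and 2.15 in replicate 2. In both libraries it lay below every other core gene, the next being Ndufs3 at 2.58 in replicate 1 and 2.47 in replicate 2.

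The 27 accessory subunits, which surround the core of complex I, had a mean of library medians of 3.88 ± 0.164. By the mean of the libraries Ndufa13 (also known as GRIM-19) was first, with 6.35 in replicate 1 and 4.34 in replicate 2, although in replicate 2 Ndufa9 was highest at 5.36. These are not the same peak: the strongest peak lay at -732 bp from the nearest Ndufa13 start in replicate 1 and at 878 bp in replicate 2, and both are closer to a start of another gene, Yjefn3 in replicate 1 and Tssk6 in replicate 2. Ndufb5, second by the mean and not in replicate 2, had 5.70 in replicate 1 and 4.27 in replicate 2 from a peak centred at -110 bp from its start in each. Ndufc2, a subunit of the membrane arm, had the lowest mean of all 82 genes, with 1.09 in replicate 1 and 1.48 in replicate 2, where Cox6b1 was lower.

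The 8 assembly factors, which build complex I and are not part of it, had the highest mean of library medians of any role, 4.26 ± 0.157, although this lay within 1 SD of the core value. In replicate 1 the core subunits had the higher median, 4.63 against 4.37, and in replicate 2 the lower, 3.54 against 4.15. Ndufaf8 had 9.74 in replicate 1 and 10.2 in replicate 2, above every other gene of the set in both libraries. Its peak sits between the divergent starts of Ndufaf8 and Tepsin and its middle is nearer to the start of Tepsin. Ndufaf5, whose product works with that of Ndufaf8 in human cells, was second at 5.86 in replicate 1 and 6.37 in replicate 2. Ndufaf6 had the lowest mean of the assembly factors, with 2.78 in replicate 1, where Ndufaf1 was lower at 2.64, and 2.23 in replicate 2.

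Complex II, succinate dehydrogenase, had 4 genes with a mean of library medians of 3.27 ± 0.561. The flavoprotein gene Sdha had 4.19 in replicate 1 and 3.14 in replicate 2. The membrane anchor gene Sdhc had 3.53 in replicate 1 and 3.46 in replicate 2, and the other anchor gene, Sdhd, had the lowest mean, with 3.43 in replicate 1 and 2.61 in replicate 2. The iron-sulphur gene Sdhb had 3.81 in replicate 1 and 2.36 in replicate 2, where it was the lowest of the 4. The libraries differed by more for Sdhb than the 4 genes differed in replicate 1, so their order did not hold against the spread between libraries.

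Complex III, which passes electrons from ubiquinol to cytochrome c, had 8 genes with a mean of library medians of 3.24 ± 0.395. Uqcrq led with 6.07 in replicate 1 and 5.65 in replicate 2, from a peak centred at -239 bp from its start, nearer to the start of its divergent neighbour Gdf9. The Rieske iron-sulphur gene Uqcrfs1 followed with 4.25 in replicate 1 and 4.43 in replicate 2. Uqcrc2, a core protein of the complex, was the lowest at 2.02 in replicate 1 and 1.70 in replicate 2. In both libraries Uqcrq lay above Uqcrfs1 and Uqcrfs1 above Uqcrc2.

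The 10 ubiquitous genes of complex IV, cytochrome c oxidase, had a mean of library medians of 3.12 ± 0.644. Cox6c had 5.41 in replicate 1 and 5.43 in replicate 2, nearly equal between libraries, and Cox6a1 had 5.18 in replicate 1 and 4.03 in replicate 2. Cox6b1 was the lowest at 1.72 in replicate 1 and 1.23 in replicate 2, and Cox4i1, the largest nuclear subunit, had 1.79 in replicate 1 and 1.90 in replicate 2. Within this complex, genes at the top and the bottom of the order differed by more than the libraries did.

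Complex V, the ATP synthase, had 17 gene models, of which 16 had a promoter peak in both libraries, with a mean of library medians of 3.57 ± 0.490. Atp5g1, which encodes subunit c of the rotating ring, had 6.96 in replicate 1 and 5.02 in replicate 2. The other genes for the same mature subunit c were lower: Atp5g2 had 5.41 in replicate 1 and 3.44 in replicate 2, and Atp5g3 had 3.52 in replicate 1 and 2.85 in replicate 2. The order of the subunit c genes was the same in both libraries. Atp5b, the catalytic beta subunit, had 5.61 in replicate 1 and 5.58 in replicate 2, and Atp5l, subunit g, had the lowest mean, with 2.39 in replicate 1 and 2.17 in replicate 2, where Atp5j was lower at 2.14. Outside the complexes, Cox7a2l had 3.32 in replicate 1 and 2.75 in replicate 2, and Atp5s had 3.09 in replicate 1 and 2.30 in replicate 2.

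Most genes were lower in replicate 2. This held for 60 of the 82 (73.2%), as it did for 73.4% of all genes with a peak, with a median log2 ratio (replicate 2 over replicate 1) of -0.21 and, over all genes, -0.17. Across genes, which are not independent replicates and share the 2 libraries, the correlation of strength was r = 0.877 over the 82 and 0.946 over all. In 5 genes (6.10%, where 6.43% of all genes did so) the libraries differed by more than 1.5-fold. They were Cox7c (1.68-fold), Cox7a2 (1.62-fold), Sdhb (1.61-fold), Atp5g2 (1.57-fold) and Ndufb4 (1.57-fold), each higher in replicate 1. For 80 of the 82 genes the strongest peaks of the libraries overlapped, the exceptions being Ndufa13 and Ndufaf3.

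**Figure D2:**
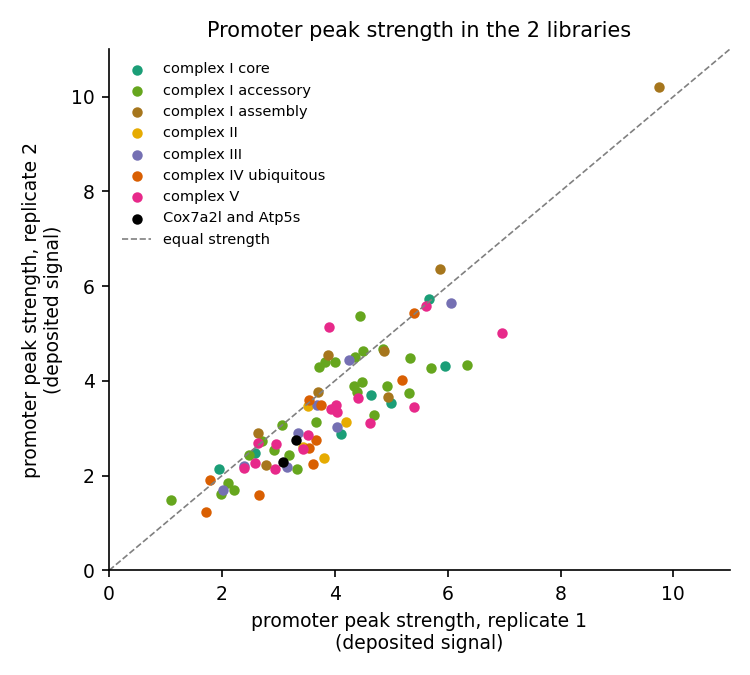
Strength of the strongest promoter peak in replicate 1 (horizontal) and replicate 2 (vertical) for the 82 genes with a peak in both libraries, coloured by complex and role, with the line of equal strength. More points lie below the line (60 of 82 are lower in replicate 2), and Ndufaf8 is the point at the upper right.

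The tissue-restricted isoforms were set beside their ubiquitous counterparts. None of the 8 restricted isoforms had a narrow promoter peak in both libraries, while 56.0% of all genes and each of the 7 counterparts did, counting the X-linked Cox7b. For 6 of the 8 (Cox4i2, Cox6a2, Cox7b2, Cox8b, Cox8c and Ndufa4l2) the promoter held no narrow peak, no peak of the broader list, no footprint and no interval of the deposited table of FDR values (false discovery rates, listed below 0.05) in either library.

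Cox6a2, the heart and skeletal muscle isoform, had no promoter peak in either library, against 5.18 in replicate 1 and 4.03 in replicate 2 for the ubiquitous Cox6a1. The Cox6a1 promoter held 8 footprints in replicate 1 and 6 in replicate 2, and its lowest listed FDR was 2.37e-47 in replicate 1 and 1.61e-48 in replicate 2. The pair thus stood apart in each deposited measure.

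Cox7a1, known from heart, skeletal muscle and brown fat, had no narrow peak in either library, against 3.62 in replicate 1 and 2.24 in replicate 2 for Cox7a2. In replicate 2 alone its promoter held a peak of the broader list, at 0.759, with a lowest FDR of 0.00955. Cox8b, known from heart, muscle and brown fat of the mouse, had no peak in either list, and neither did Cox8c, known from testis, against 3.67 in replicate 1 and 2.75 in replicate 2 for Cox8a.

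Cox6b2, known from testis, was the restricted isoform with most signal. It had a narrow peak of 0.673 with 7 footprints in replicate 1 and none of either in replicate 2, against 1.72 in replicate 1 and 1.23 in replicate 2 for Cox6b1. In the broader list Cox6b2 had 0.673 in replicate 1 and 0.722 in replicate 2, with a lowest FDR of 0.000101 in replicate 1 and 0.0103 in replicate 2. Its strength in each library lay below that of Cox6b1, itself the lowest of the ubiquitous complex IV genes on the autosomes.

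Cox7b2, known from testis, had no peak, against 1.06 in replicate 1 and 1.14 in replicate 2 for the X-linked Cox7b. Cox4i2, known from lung, had no peak, against 1.79 in replicate 1 and 1.90 in replicate 2 for Cox4i1. Ndufa4l2, known to be induced by hypoxia, had no peak, against 3.75 in replicate 1 and 3.48 in replicate 2 for Ndufa4, a subunit first assigned to complex I and now placed in complex IV. These 3 isoforms had no peak in the broader list either.

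**Figure D3:**
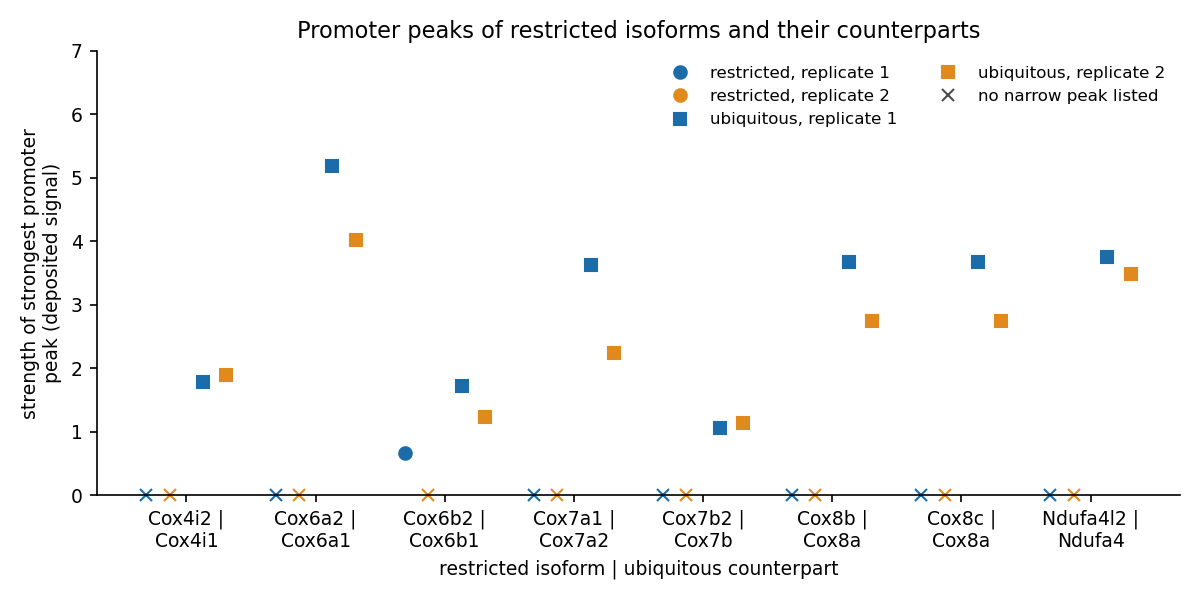
Strength of the strongest narrow promoter peak (deposited signal) of each restricted isoform (left of each pair) and its ubiquitous counterpart (right), in replicates 1 and 2. Crosses on the axis mark a library with no narrow promoter peak listed, which is so for every restricted isoform except Cox6b2 in replicate 1 (0.673), while all counterparts have a peak in both.

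Base composition also differed within these pairs. The CpG ratio (observed over expected CpG, in the 250 bases before to 50 after the main start) had a median of 0.368 over the 8 restricted isoforms (0.115 to 0.564) and of 0.838 over the 6 autosomal counterparts (0.674 to 1.20). The ranges did not overlap. GC content overlapped, with a median of 53.0% (43.7% to 63.3%) in the restricted isoforms and 55.0% (52.7% to 75.3%) in their counterparts. Over the whole set the median CpG ratio was 0.807 against 0.573 over all genes, and 67 genes (73.6%) were above 0.6 against 48.0% of all genes. All 67 had an open promoter in both libraries, against 86.8% of all genes above 0.6. Among the 24 members at or below 0.6, 15 (62.5%) had one, against 27.6% of all such genes. The ratio was read at the main start alone, whereas a promoter peak could lie at any annotated start. In Atp5j2 (ratio 0.104) and Atp5f1 (0.217), for example, the strongest peak lay outside the ratio's window in both libraries. A low ratio therefore does not mean that the open stretch itself was poor in CpG.

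Promoter sequence of the restricted isoforms held other letters of note. Cox6a2 has the MEF2 motif CTAAAAATA centred at -24 bp and the E-box CAGCTG at -83 bp, both visible in its stretch above and both known as elements bound by muscle factors. The MEF2 motif was present in the same window of 0.461% of all genes and of no other respiratory chain gene. The E-box is common, present in that window of 15.5% of all genes and 14.3% of the set, among them Cox8b and the testis isoform Cox8c. Neither of the Cox6a2 matches lay in a peak or a footprint in these libraries. Cox6a1 has NRF1 matches at -90 bp and about -135 bp and an ETS match at 10 bp, each with its centre in a footprint of both libraries.

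Many of these genes share their promoter with a neighbour, so that a peak cannot be given to either gene alone. Another protein-coding gene started within 1000 bp for 35 of the 91 genes (38.5%) against 14.8% of all genes, and in 34 (37.4%) the neighbour ran the other way, against 12.7% of all genes. The share with a coding neighbour was 43.6% for mitochondrial ribosomal, 20.8% for cytosolic ribosomal and 25.6% for proteasome genes. Some pairs join genes of mitochondrial function, as Ndufs6 with Mrpl36, Ndufb5 with Mrpl47 (both mitochondrial ribosomal proteins) and Sdhd with Timm8b (a chaperone for protein import). Others do not by name, as Ndufa7 with Rps28, Cox4i1 with Emc8 and Uqcrq with Gdf9. The 35 with such a neighbour had a mean of library medians of 3.65 ± 0.239 and the 47 others with a peak 3.39 ± 0.467. Those with a neighbour were higher in both libraries, at 3.82 against 3.72 in replicate 1 and 3.48 against 3.06 in replicate 2. Over all genes with a peak the gap was wider, at 3.23 ± 0.385 with such a neighbour and 2.41 ± 0.219 without.

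Atp5j, which encodes coupling factor 6 of the ATP synthase, shares its promoter with Gabpa, the gene for the DNA-binding subunit of GABP. Each library had 4 narrow peaks there, the strongest at 2.95 in replicate 1 and 2.14 in replicate 2. It holds ETS matches at -30 and -29 bp, each counted from the Atp5j start nearest to it. They lay inside a peak in both libraries and in a footprint of neither. The Atp5j promoter held 12 footprints in replicate 1 and 19 in replicate 2.

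The middle of the strongest peak was nearest to a start of the gene itself in 69 of the 82 genes (84.1%) in each library, against 85.4% of all genes in replicate 1 and 85.2% in replicate 2. Promoter peaks of the set covered less sequence than those of all genes. The bases of a promoter covered by narrow peaks had a median of 280 in replicate 1 and 318 in replicate 2, against 360 in replicate 1 and 418 in replicate 2 for all genes with a peak. A single promoter peak was listed for 57 genes (69.5%) in replicate 1 and 56 (68.3%) in replicate 2, against 53.7% and 51.2% of all genes in replicates 1 and 2. The middle of the strongest peak lay a median of 32 bp from the nearest start in replicate 1 and 35 bp in replicate 2, against 63 bp and 70 bp for all genes. Mitochondrial ribosomal, cytosolic ribosomal and proteasome genes were like the set, with a median of 280 covered bases in replicate 1 in each, a single peak in 76.9%, 68.6% and 73.0% of genes, and median offsets of 29.5, 36 and 26 bp. The genes are also shorter, with a median length of 7.67 kb against 17.6 kb, and have a median of 4 annotated starts against 3.

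Footprints within promoters, counted where their middle lay within 1000 bp of a start, had a median of 6 per gene in each library, against 4 per gene over all genes. Among genes with a promoter peak the order turned: the medians were 6.5 in replicate 1 and 7 in replicate 2 in the set, and 7 in replicate 1 and 8 in replicate 2 over all such genes. The most were in Atp5g2 (15 in replicate 1 and 19 in replicate 2) and Atp5j, followed by Ndufa13 (13 and 17), Uqcrh (15 and 13) and Ndufa11 (12 and 15). The fewest among genes with a peak were in Uqcr11 (1 in replicate 1 and 5 in replicate 2), Cox6b1 (2 and 4), Atp5mpl (2 and 5) and Uqcrfs1 (4 and 3), the last of these tied on the mean. The order of genes by footprint count was not the same in the 2 libraries.

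Although not more numerous per open promoter, footprints of the set were seen again more often than those of all genes. Of 579 promoter footprints in replicate 1, 63.2% overlapped a footprint of replicate 2, and of 608 in replicate 2, 58.9% overlapped one of replicate 1. Over all genes the shares were 53.4% in replicate 1 and 48.5% in replicate 2. Groups with duties in every cell had shares like those of the set, with 62.7% and 57.2% for mitochondrial ribosomal, 64.0% and 60.2% for cytosolic ribosomal and 62.1% and 59.2% for proteasome genes in replicates 1 and 2. Of the bases in promoter peaks shared by the libraries, 16.3% lay in footprints of both, against 10.9% over all genes. The promoter peaks of the set were also stronger, and the part of strength in these shares was not tested.

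The footprints also lay closer to the start. In replicate 1, 62.5% lay within 100 bp of a start and in replicate 2 60.4%, against 48.4% and 45.5% over all genes in replicates 1 and 2. The 25 bp bin with most footprints was the one just upstream of the start, from -25 to -1 bp, in the set and over all genes in both libraries.

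**Figure D4:**
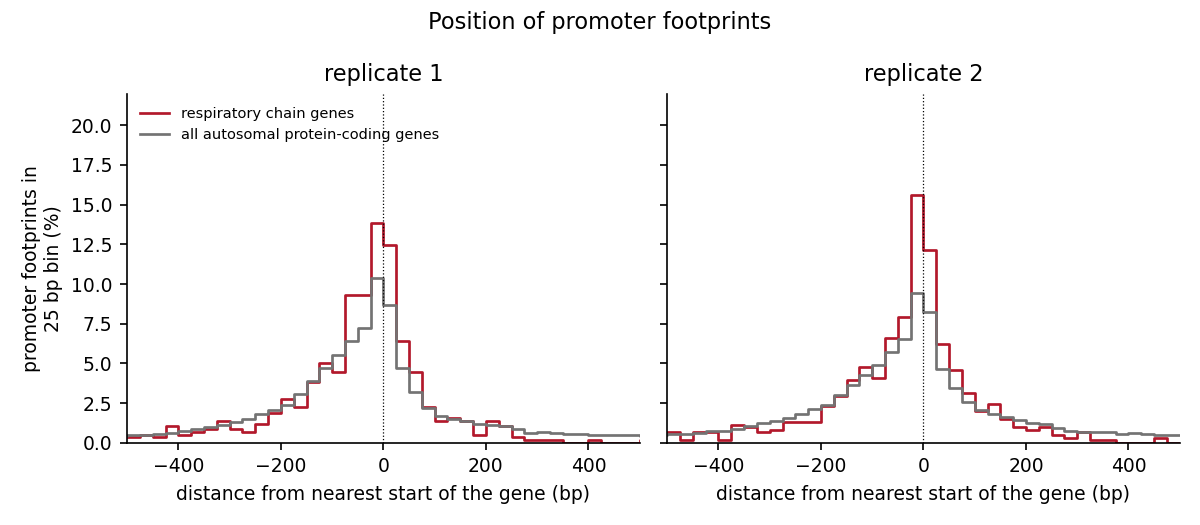
Share of promoter footprints (percent, vertical) in bins of 25 bp by distance of the footprint's middle from the nearest annotated start of its gene (horizontal, negative is upstream), in replicates 1 and 2, for the 91 respiratory chain genes (red) and all autosomal protein-coding genes (grey). Both peak just upstream of the start, and the red curve is higher there, with 62.5% in replicate 1 and 60.4% in replicate 2 within 100 bp.

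Which motifs the footprints covered was examined by exact letters on both strands, counting a gene when the centre of a match lay in a promoter footprint of both libraries. A match describes the sequence and is not proof of a bound factor. NRF1, a factor of nuclear genes for mitochondria, had its motif GCGCANGCG in footprints of 23 genes (25.3%), where 8.32% of all genes had it. The ETS motif CCGGAAG was footprinted in 8 genes (8.79%), where 2.44% of all genes had it. The YY1 motif AANATGGC was footprinted in 7 genes (7.69%), where 1.54% of all genes had it. At least 1 of the 3 was footprinted in 32 genes (35.2%), where 11.6% of all genes had one.

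For other motifs the gap to the background varied. The SP1 motif GGGCGG was footprinted in 26 genes (28.6%), where 23.3% of all genes had it. The NF-Y motif CCAAT was footprinted in 8 genes (8.79%), where 4.46% of all genes had it. The cAMP response element TGACGTCA was footprinted in 4 genes (4.40%), where 2.14% of all genes had it, namely Ndufb2, Uqcrfs1, Atp5d and Ndufa10. The E-box CAGCTG was footprinted in 4 genes (4.40%), where 1.57% of all genes had it, namely Ndufs7, Atp5b, Ndufb3 and Ndufv2. The TATA motif TATAAA was footprinted in Ndufa7 alone (1.10%), where 0.322% of all genes had it. The ESRRA motif TCAAGGTCA and the ZNF143 motif ACTACAATT were in footprints of both libraries in none of the set, and the ESRRA motif was in none of all genes either.

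Because most genes of the set have an open promoter, the same shares were taken among genes with a promoter peak. NRF1 then stood at 28.0% of the set against 14.8% of all genes with a peak, ETS at 9.76% against 4.33% and YY1 at 8.54% against 2.75%. The ETS result rests on the short motif: with CCGGAAGT it stood at 2.44% of the set (2 genes) against 2.06%, and with the whole short match inside the footprint 3 genes remained. SP1 turned round, at 31.7% of the set against 41.2%. NF-Y stood at 9.76% against 7.89% and the cAMP response element at 4.88% against 3.81%. The sequence alone was read in the same way. The window from 250 bases before to 50 after the main start held the NRF1 motif in 18.7% of the set against 8.51% of all genes, the ETS motif in 17.6% against 11.4%, the YY1 motif in 17.6% against 6.39% the SP1 motif in 41.8% against 46.2% and the NF-Y motif in 36.3% against 38.2%. NF-Y was thus higher in the set by footprints and lower by sequence.

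**Figure D5:**
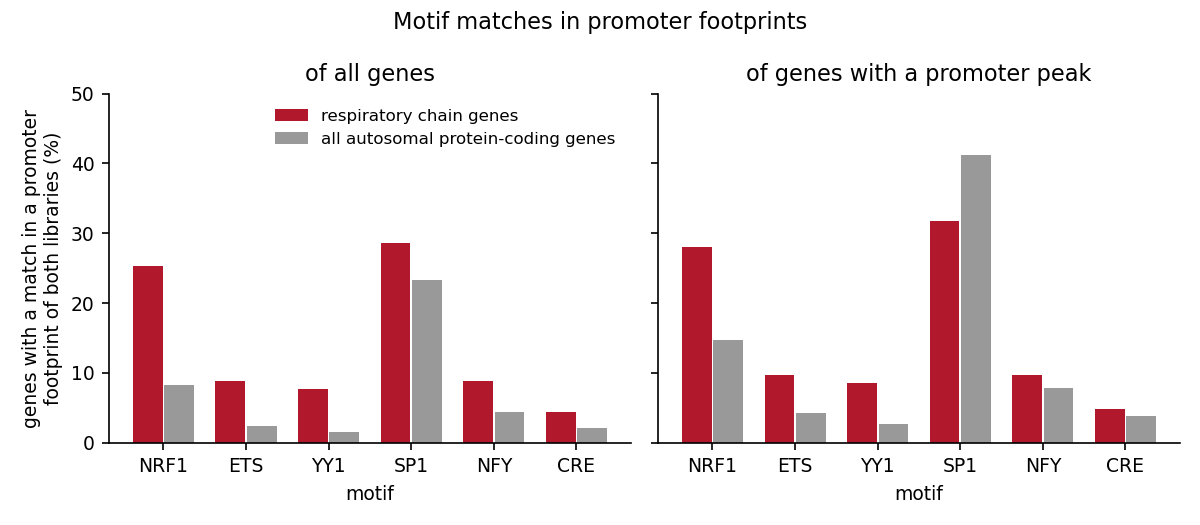
Share of genes (percent) with a motif match in a promoter footprint of both libraries, for the respiratory chain genes (red, left of each pair) and all autosomal protein-coding genes (grey), among all genes (left panel) and among genes with a promoter peak in both libraries (right panel). NRF1, ETS and YY1 are higher in the red bars of both panels, while SP1 is higher on the left (28.6% against 23.3%) and lower on the right (31.7% against 41.2%).

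NRF1 matches were often footprinted where they were accessible. Of 36 matches in promoter peaks shared by the libraries in the set, 27 lay in footprints of both, a higher share than the 64.9% of such matches over all genes. With the longer NRF1 motif GCGCATGCG the order turned, at 9 of 12, a lower share than the 83.5% over all genes. For ETS it was 7 of 29 (24.1%) against 15.4%, and for YY1 4 of 30 (13.3%), a lower share than over all genes. With the longer ETS motif CCGGAAGT it was 2 of 11 (18.2%) against 17.2%. SP1 had 31 of 69 (44.9%) against 32.5%. The cAMP response element had 4 of 5, where 73.4% of matches over all genes were footprinted. The ETS and YY1 letters were thus mostly present in open promoters of the set without a footprint that recurred.

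The NRF1 motif was footprinted in genes of every complex. It was seen in 9 of 27 complex I accessory genes, 0 of 7 core genes, 2 of 8 assembly factors, 2 of 4 complex II genes (Sdha and Sdhd), 2 of 8 complex III genes (Uqcrc1 and Uqcr11), 2 of 10 ubiquitous complex IV genes (Cox6c and Cox6a1) and 6 of 17 complex V gene models. The accessory genes were Ndufa13, Ndufa8, Ndufb7, Ndufa11, Ndufb10, Ndufs5, Ndufs6, Ndufb4 and Ndufa6. The core genes with an ETS match in a footprint were Ndufs1 and Ndufs8, and no complex III or complex V gene had one. YY1 matches in footprints fell in Atp5g1, Atp5b and Atp5g2 of complex V, Uqcrh and Uqcrb of complex III, Sdhb and Ndufaf8. These are small counts, and whether the roles differ was not tested.

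Few promoters held several of these motifs in footprints. NRF1 and ETS occurred together in Cox6a1, Ndufa13 and Ndufb7, ETS and YY1 in Ndufaf8 and Sdhb, and NRF1 and YY1 in Atp5g2. In Ndufa13 the printed NRF1 match lies at -679 bp and the ETS match at 785 bp from the start. Each falls in a separate peak closer to a start of another gene, Yjefn3 for NRF1 and Tssk6 for ETS. In Ndufaf8, the strongest promoter of the set, the printed ETS and YY1 matches lie close together around a start, and CCAAT was footprinted upstream of them. Genes with an NRF1 match in a footprint had a mean of library medians of 3.82 ± 0.527 (23 genes) and the others 3.40 ± 0.407 (59 genes). Genes with the match were higher in both libraries, at 4.19 against 3.69 in replicate 1 and 3.44 against 3.11 in replicate 2. Over all genes with a peak it was 3.45 ± 0.494 with the match (1721 genes) and 2.46 ± 0.220 without (9935 genes).

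Peaks outside starts, as possible distal elements, were counted in the gene and 10000 bp on either side, leaving out peaks with their middle within 1000 bp of any annotated start. In both libraries 25 of the 91 genes (27.5%) had such a peak, where 32.0% of all genes did. The number is set in part by gene length, and the genes are short. There were 56 distinct peaks in replicate 1, of which 37 were found again in replicate 2, and 46 in replicate 2, of which 36 were found again. Only 8 of those in replicate 1 and 12 of those in replicate 2 lay inside a gene of the set. Their median strength was 1.23 in replicate 1 and 1.17 in replicate 2, well under that of the promoters.

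Among the restricted isoforms 5 of 8 had such a peak in both libraries, though none had a promoter peak. Ndufa4l2 had 5 in replicate 1 and 6 in replicate 2, the most of any gene of the set in replicate 1 and as many as the long Atp5o model in replicate 2. The strongest of them, at chr10:127512861-127513120 in replicate 1 and chr10:127512861-127513080 in replicate 2, reached 4.15 in replicate 1 and 5.06 in replicate 2 and lay 1.98 kb and 2.00 kb upstream of the Ndufa4l2 start. It was higher in both libraries than the promoter of the ubiquitous Ndufa4. The next coding gene outside the set in that direction is Stac3, whose nearest start lay 5765 bp from the peak in replicate 1.

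Cox8b had 2 such peaks in each library, 2.99 kb and 8.29 kb upstream in replicate 1, with strengths of 1.39 and 1.32 in replicate 1 and of 2.38 and 1.47 in replicate 2. Cox4i2 had a peak 12.5 kb downstream of its start, outside the gene, at 1.81 in replicate 1 and 3.22 in replicate 2. Cox7a1 had a peak 2.64 kb upstream at 1.23 in replicate 1 and 2.62 kb upstream at 1.65 in replicate 2. Cox7b2 had an intronic peak 45.9 kb into the gene at 1.23 in replicate 1 and 0.528 in replicate 2. No such peak was listed for Cox6a2, Cox6b2 or Cox8c in either library. The files do not tie any of these peaks to a gene, and distance is the sole link.

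Of the ubiquitous genes, Atp5h, subunit d of the ATP synthase, had 4 peaks in replicate 1 and 3 in replicate 2, the strongest at 3.62 in replicate 1 and 4.48 in replicate 2, 6.41 kb and 6.53 kb downstream of its start in replicates 1 and 2. The long Atp5o model had 4 in replicate 1 and 6 in replicate 2, which its length of 243 kb takes in from other loci, and the usual Atp5o model had 3 in replicate 1 and 2 in replicate 2. Ndufs1, Atp5l, Uqcrfs1 and Ndufaf2 had 2 in each library, as Cox8b did. Those of Ndufaf2 were intronic, 62.8 kb and 117 kb into the gene in both libraries, with strengths of 0.667 to 0.967.

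Genes of the same pathway with other names gave like values. Of 55 such genes, among them assembly factors of complexes I to V, cytochrome c, X-linked subunits and transcriptional regulators, 52 (94.5%) had a promoter peak in both libraries, where 56.0% of all autosomal genes did. The exceptions were Cyct, the testis cytochrome c, and Sdhaf1, with none in either library, and Ppargc1a, the coactivator PGC-1alpha, with 0.701 in replicate 1 only. Cycs, the somatic cytochrome c, had 5.79 in replicate 1 and 4.63 in replicate 2, so cytochrome c repeated the pattern of the complex IV pairs. The X-linked subunit genes were low, with Ndufa1 at 1.36 and 1.67, Ndufb11 at 1.40 and 1.40, and Cox7b at 1.06 and 1.14 in replicates 1 and 2. Males carry a single X chromosome, and its part in these values was not tested. Among the regulators Esrra had 6.08 in replicate 1 and 4.91 in replicate 2 and Nrf1, at the lower end, 2.18 in replicate 1 and 2.11 in replicate 2.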

How the data were processed

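DNase-seq libraries of left cerebral cortex, replicates 1 and 2, form 1 group without a contrast, so no p-value was computed. The authors called peaks library by library, per the notes that accompany the deposited files. The peak caller, aligner and read depth were not given in the sources used here. Strength is the signal value that the authors deposited with each peak, in a normalization they do not state. All values of a library were whole multiples of a smallest unit (0.00948 for replicate 1, 0.00926 for replicate 2), and no further scaling was applied. The deposited FDR table (a q-value per short interval) lists values below 0.05. Footprints were deposited as intervals without a usable value. Within the narrow list 2.29% of peaks in replicate 1 and 3.13% in replicate 2 overlapped a preceding peak, and bases were counted once.

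Coordinates are mm10, counted from 1, and genes and sequence are from GRCm38.p6 with GENCODE M21. A promoter peak overlapped 1000 bp on either side of any annotated start by at least 1 bp, so neighbouring genes can share a peak. Footprints and motif matches were placed by their middle, and 11 motifs were searched on both strands. Named genes follow a rule: restricted isoforms and counterparts, genes without a promoter peak, the extremes of each role, of footprints, of peaks outside starts and of the ratio between libraries. The match to MEF2 and the Atp5j promoter were singled out after their values were seen. The genes and lists were chosen with earlier results of these data known. Alternatives changed the peak list, window, starts, overlap, motif and libraries. Scripts used Python 3.11.15, numpy 2.4.6, pandas 2.3.3 and matplotlib 3.10.9, and were tested on simulated data. The SD beside a mean is that of 2 libraries and is only a rough estimate.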

Additional observations from a re-analysis of the deposited data

How the results depend on the processing

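Of the 50 alternative values computed for 7 results, 36 stayed within 1.5 times the reported count or within 1 SD of the reported value. The count of genes with a promoter peak in both libraries stayed between 81 and 83 of 91 in the planned settings, and was 69 when a peak counted only for the gene of the nearest start, a setting chosen after seeing the data; the median strength was then 3.37. The median strength was 3.96 when promoter peaks were summed. The median footprint count was 5 when footprints had to lie in a narrow peak. Of the restricted isoforms, 1 passed with the broader list (Cox6b2), 1 with promoters of 2000 bp on either side (Ndufa4l2, through the upstream peak) and 0 or 1 with 1 library left out (Cox6b2). Genes with a peak outside starts numbered 5 within the gene body, 58 with 50 kb on either side, 46 in the broader list and 13 with the stronger 50% of peaks. Genes with a footprinted ETS motif numbered 3 when the whole match had to lie in the footprint, 22 when a match anywhere in a promoter peak counted and 2 with the longer CCGGAAGT. For NRF1 the numbers were 15 with the whole match and 11 with GCGCATGCG. With the longer motifs the shares were 12.1% of the set against 2.65% of all genes for NRF1 and 2.20% against 1.16% for ETS. Why these counts moved was not tested beyond what each setting leaves out or adds. The alternative counts of peaks outside starts, of whole matches and of matches anywhere in a peak were made for the set alone. So were the values with other promoter windows, starts or overlaps and with the stronger 50% of peaks. The values with the nearest start only and with footprints inside a narrow peak were also made for the set alone. Whether the comparison with all genes holds in those settings was not examined. With 1 library left out, genes with a promoter peak numbered 82 to 83, their median strength 3.31 to 3.75, the median footprint count 6 to 6, genes with a peak outside starts 29 to 35, with a footprinted ETS motif 9 to 11 and with a footprinted NRF1 motif 25 to 25. No paired analysis was possible because the libraries form a single group. Depth is unknown, so an unlisted peak means that none was called at the depth reached. Exact letters miss weaker matches, and footprints of a library can miss bound sites. A start in the annotation need not be used in cortex.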
